A study of Mus musculus with 3 samples.

Results

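Of the 32285 genes in the deposited matrices, 9 encode enzymes that make, use or recycle glutathione or that are textbook targets of the transcription factor NRF2: Gstm1, Gstp1, Gsto1, Gclc, Gclm, Gsr, Nqo1, Txnrd1 and Srxn1. They were taken from the matrices by gene symbol, and all 9 were found. They were followed through single-cell RNA libraries of mouse salivary gland organoids, which are epithelial cultures grown in a gel from dissociated gland. The study asked how such organoids differ after photon or proton irradiation.

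The photon library came from organoids given 7 Gy of photons, the proton library from organoids given 7 Gy of protons, at the plateau region of the beam's depth curve, and the control library from organoids that were not irradiated. Irradiation was on day 5 and collection on day 11, and each group is 1 library. The organoids of all 3 groups derived from the submandibular gland of C57BL/6 mice aged 8-12 weeks, from 4 animals, with cells not tied to an animal by the labels. All grew in Matrigel, in a medium that held EGF, FGF2, N2, insulin, the ROCK inhibitor Y27632 and the glucocorticoid dexamethasone at 1 µM, with R-spondin1-conditioned and Wnt3a-conditioned medium added. Sorting kept 45000 cells per library that excluded propidium iodide, a dye that enters cells with a failed membrane.

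NRF2, encoded by Nfe2l2, is a transcription factor that KEAP1 marks for degradation in unstressed cells. Oxidants and electrophiles modify KEAP1, NRF2 then accumulates, pairs with a small MAF protein and binds antioxidant response elements, while BACH1 occupies many of the same elements as a repressor. Glutathione, a tripeptide with a reactive thiol, is made from imported cystine and amino acids, is joined to electrophiles by transferases and is returned to its reduced form by a reductase that uses NADPH.

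After filtering, the photon library held 15041 cells and 46936995 unique molecular identifiers (UMIs, each standing for 1 captured transcript), the proton library 13956 cells and 36692939 UMIs, and control 13219 cells and 39514768 UMIs. Median depth per cell was 2808 UMIs in photon and 2223 in proton against 2757 in control. Epithelial markers were abundant in every library, with Epcam between 686 and 1422 counts per 1000000 UMIs (CPM). Of the acinar markers, Prol1 and Bpifa2 had no UMI in any library, while Aqp5 had 13.8 CPM in photon and 11.99 CPM in proton, against 11.9 CPM in control. Among the listed fibroblast, immune, endothelial and erythroid markers the highest value was 2.15 CPM, of Pecam1 in proton, and Col1a2, Tyrobp, Hba-a1 and Hbb-bs had no UMI. Between 49 and 56 cell barcodes were shared by each pair of libraries. Since each group was 1 library, no difference was tested. Every interval given is an exact 95% interval of counting error and leaves out the spread between cells, cultures, animals and library preparations. The intervals of levels and ratios treat each UMI as independent. They are too narrow where a few cells hold many transcripts of a gene, as for Gsto1 below.

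Upstream sequence was available from RefSeq (GRCm38.p6) for 7 of the 9 genes. The windows ran from 250 bases before to 50 bases after each annotated start, with several windows where a gene has several starts. The core of the antioxidant response element, TGACNNNGC, was searched on both strands and was present in windows of 3 of these 7 genes, Gclm, Txnrd1 and Srxn1. By window, this was 3 of the members' 10 windows and 21 of the 116 windows of the other pathway genes, where 12.4% of all 32851 RefSeq windows held it. The core bound by AP-1, TGACTCA, which overlaps a NRF2 core when GC follows, was searched after the sequences had been seen. It was present in 2 of the members' 10 windows, those of Gstp1 and Srxn1, and in 5.20% of all windows, while windows with both cores as 1 site made up 0.454%.

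The 250 bases before the start are shown for the 4 genes with a match, 5′ to 3′ along the gene, with either core in capitals. Every match lies on the strand opposite to the gene, so it is printed as its reverse complement.
Gstp1, chr19:4037913-4038162, minus strand: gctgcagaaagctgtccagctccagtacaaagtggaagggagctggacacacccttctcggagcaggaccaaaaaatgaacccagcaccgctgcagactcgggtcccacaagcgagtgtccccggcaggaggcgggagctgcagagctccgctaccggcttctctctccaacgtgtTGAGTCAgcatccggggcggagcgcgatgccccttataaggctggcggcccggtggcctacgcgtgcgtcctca
Srxn1, chr2:152105274-152105523, plus strand: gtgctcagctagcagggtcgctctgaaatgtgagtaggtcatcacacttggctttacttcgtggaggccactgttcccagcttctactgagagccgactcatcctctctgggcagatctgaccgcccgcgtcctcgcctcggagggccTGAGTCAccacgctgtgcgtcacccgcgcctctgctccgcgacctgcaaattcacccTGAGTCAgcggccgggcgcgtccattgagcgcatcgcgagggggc
Gclm, chr3:122245307-122245556, plus strand: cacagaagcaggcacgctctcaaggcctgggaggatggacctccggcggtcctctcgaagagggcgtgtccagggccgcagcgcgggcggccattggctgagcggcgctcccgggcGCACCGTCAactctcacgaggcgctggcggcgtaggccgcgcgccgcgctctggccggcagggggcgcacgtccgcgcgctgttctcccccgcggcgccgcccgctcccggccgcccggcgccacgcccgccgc
Txnrd1, chr10:82858956-82859205, plus strand, 1 of 3 windows: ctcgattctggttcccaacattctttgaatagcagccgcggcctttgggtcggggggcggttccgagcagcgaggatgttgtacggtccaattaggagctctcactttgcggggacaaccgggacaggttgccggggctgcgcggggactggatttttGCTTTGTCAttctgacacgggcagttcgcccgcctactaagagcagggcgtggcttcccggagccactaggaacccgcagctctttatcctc
Gstp1 held a single TGACTCA, at -74 to -68 from the start. Srxn1 held it at -102 to -96 and at -45 to -39, and its antioxidant response core, TGACCTAGC, began 28 bases after the start and so lies outside the printed stretch. The Gclm site was TGACGGTGC at -134 to -126 and the Txnrd1 site TGACAAAGC at -92 to -84. A match describes these letters and is not evidence of binding. In Gstp1 and at the nearer Srxn1 site, GC follows the printed TGAGTCA, and the TGAC search did not count these. A gene without a match can hold another form of the core or an element beyond the window. Neither was searched.

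The 3 glutathione transferases were the members furthest below control in the proton library, and Gstm1 and Gstp1 were also well below it in the photon library. The enzymes of glutathione synthesis, Gclc and Gclm, lay close to control in both irradiated libraries. Srxn1 alone was above control in both. A gene was counted as higher or lower when its CPM differed at least 1.5-fold and the 2 libraries averaged at least 5 CPM, a floor that all 9 members passed in every comparison.

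**Figure D1:**
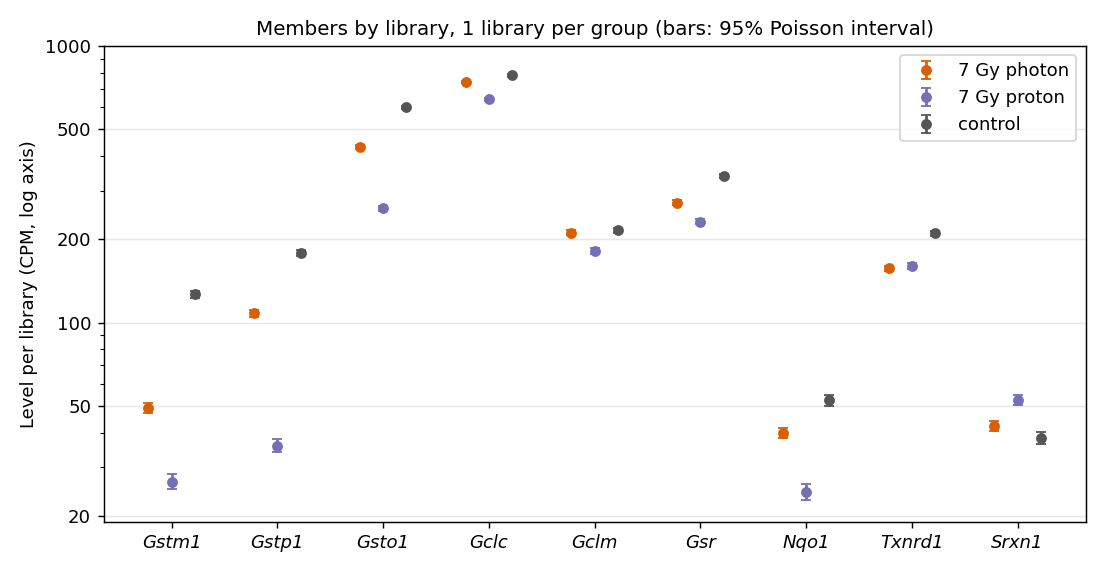
Level of each of the 9 genes in CPM (log axis) in the photon, proton and control libraries, 1 library per group, with bars for the exact 95% Poisson interval of the count. In 8 of the 9 genes the control point is the highest, and Srxn1 has its control point lowest.

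Between photon and control, 0 of the 9 members were higher and 2 were lower, Gstm1 and Gstp1, where 7.37% of the 10090 genes compared were higher and 9.45% were lower. The counting interval of the ratio lay wholly below 1 for 7 members, above 1 for Srxn1, and spanned 1 for Gclm. No share over all genes by this interval rule is given, here or in the comparisons below. These counts therefore do not set the members apart from other genes. The members' median log2 ratio was -0.39, beside -0.12 over all genes compared.

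Between proton and control, 0 of the 9 were higher and 4 were lower, Gstm1, Gstp1, Gsto1 and Nqo1, where 14.2% of 10211 genes were higher and 14.9% were lower. For 8 members the interval lay wholly below 1. The median log2 ratio of the members was -0.55, beside 0.03 over all genes. These 2 comparisons use the same control library, so a high or low count there enters both.

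Between proton and photon, the same 4 genes were lower and 0 were higher, where 22.2% of 10157 genes were higher and 14.0% were lower. The median log2 ratio was -0.23 for the members and 0.12 over all genes. Only Srxn1 had an interval wholly above 1, and that of Txnrd1 spanned 1. Summed over the 9 genes, transcripts amounted to 2052 CPM in photon and 1614 CPM in proton, against 2544 CPM in control.

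**Figure D2:**
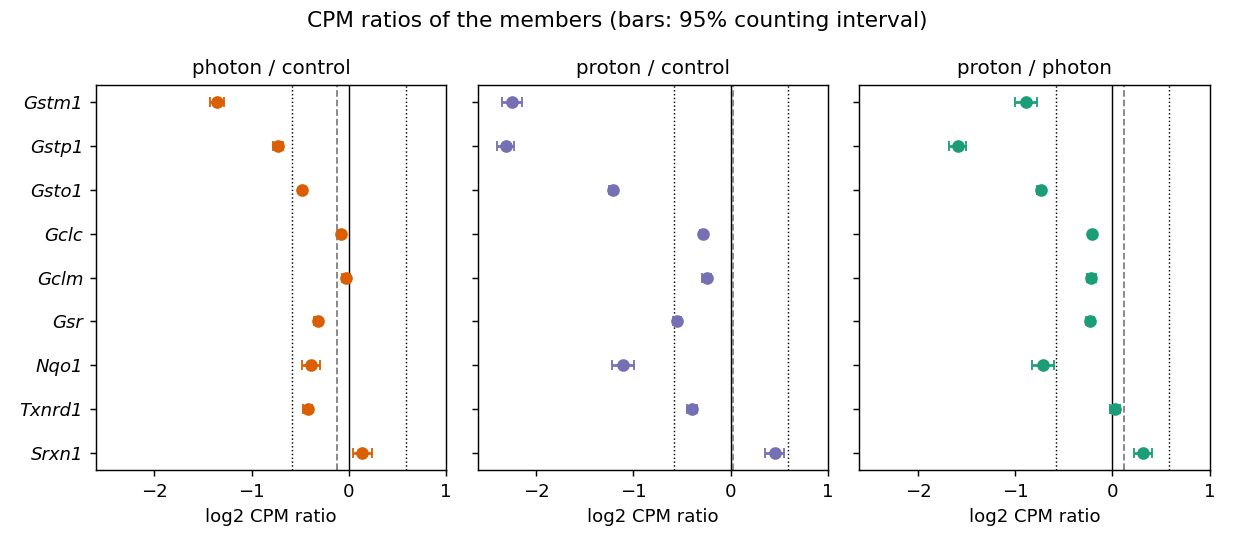
Log2 CPM ratio of each of the 9 genes in the 3 comparisons, with bars for the 95% counting interval, dotted lines at 1.5-fold and a dashed line at the median of all genes compared. Gstm1 and Gstp1 lie lowest in the proton to control panel, at -2.25 and -2.31.

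Gstm1 encodes a mu-class transferase that joins glutathione to electrophiles (GRCm38 chromosome 3, 108012255 to 108017973, minus strand). It stood at 49.3 CPM in photon (47.3 to 51.3) and 26.6 CPM in proton (24.98 to 28.3), against 126 CPM in control (123 to 130). The ratio to control was 0.390 in photon (0.371 to 0.410) and 0.211 in proton (0.197 to 0.226), and the ratio of proton to photon was 0.540 (0.501 to 0.583). The 3 intervals of the level did not overlap.

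Fewer cells with a transcript and less RNA per cell cannot be told apart from a summed level. With every cell reduced at random to 2000 UMIs, a Gstm1 transcript was seen in 8.99% of 10891 photon cells and 4.84% of 7939 proton cells, against 23.9% of 9620 control cells. Without that reduction the shares were 13.4% and 6.48% against 28.5%. Transcripts per positive reduced cell were 1.09 in photon and 1.04 in proton against 1.21 in control. Averaged over all reduced cells, Gstm1 transcripts per cell were 0.0979 in photon and 0.0503 in proton, against 0.290 in control. At averages this low, the share of positive cells falls with the level in either case. Cells with at least 2 Gstm1 transcripts made up 0.707% in photon and 0.189% in proton, against 4.28% in control. Whether fewer cells held a transcript or cells held less of it was not tested. No cell type in these cultures is known to lack these genes, so the share that free RNA alone would give was not measured.

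Gstp1, the pi-class transferase (chromosome 19, 4035407 to 4037985, minus strand), differed most between the beams. It stood at 108 CPM in photon and 35.9 CPM in proton, against 178 CPM in control. Proton was 0.332 of photon (0.313 to 0.353) and 0.201 of control (0.190 to 0.214), and photon was 0.605 of control (0.584 to 0.628). At 2000 UMIs it was seen in 18.9% of photon cells and 7.48% of proton cells, against 29.5% of control cells. Cells with at least 2 Gstp1 transcripts made up 2.30% in photon and 0.302% in proton, against 6.62% in control.

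Both genes have close paralogs on the same chromosome with which short 3′ reads can be confused. Gstm2 had 53.0 CPM in photon and 36.5 CPM in proton against 88.2 CPM in control, and Gstp2 had 3.66 and 1.99 CPM against 12.6 CPM. Both of these paralogs were below control in both irradiated libraries, and how reads were shared with them was not tested. Gstm5 was at 50.7 CPM in photon and 50.7 CPM in proton, against 43.7 CPM in control, and Gstm4 had between 5.31 and 7.77 CPM in the 3 libraries.

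Gsto1, an omega-class transferase that reduces dehydroascorbate and other substrates through a cysteine (chromosome 19, 47854970 to 47864790, plus strand), had 432 CPM in photon and 259 CPM in proton, against 601 CPM in control. Its ratio to control was 0.719 in photon (0.705 to 0.732) and 0.431 in proton (0.421 to 0.442). At 2000 UMIs, 49.1% of photon cells and 36.0% of proton cells had a Gsto1 transcript, against 59.2% of control cells.

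The count of Gsto1 per cell had a long tail. A cell reduced to 2000 UMIs held as many as 94 Gsto1 transcripts in photon and 21 in proton, against 72 in control. Cells with 10 or more, a limit chosen after the values were seen, numbered 30 in photon and 10 in proton, against 59 in control. These cells carried 9.55% of all Gsto1 transcripts in photon and 3.11% in proton, against 12.3% in control.

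Gclc and Gclm encode the catalytic and the modifier subunit of glutamate-cysteine ligase, the rate-limiting enzyme of glutathione synthesis. Gclc (chromosome 9, 77754535 to 77794485, plus strand) had 741 CPM in photon and 642 CPM in proton, against 784 CPM in control. Its ratio to control was 0.945 in photon (0.931 to 0.960) and 0.820 in proton (0.806 to 0.834). Gclm (chromosome 3, 122245557 to 122270732, plus strand) had 211 CPM in photon and 181 CPM in proton, against 215 CPM in control, ratios of 0.980 (0.952 to 1.01) and 0.843 (0.816 to 0.870). Neither passed 1.5-fold in any comparison, and the 2 subunits had like ratios to control in the proton library.

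Gclc differed from the transferases in how it was distributed. At 2000 UMIs its transcript was seen in 57.0% of photon cells and 52.3% of proton cells, against 61.5% of control cells. Transcripts per positive cell were 2.47 in photon and 2.32 in proton, against 2.39 in control. Cells with at least 5 Gclc transcripts made up 7.15% in photon and 5.37% in proton, against 7.11% in control.

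Gsr, the NADPH-dependent reductase that regenerates glutathione (chromosome 8, 33652523 to 33698163, plus strand), had 272 CPM in photon and 232 CPM in proton, against 339 CPM in control. The ratio was 0.801 in photon (0.782 to 0.821) and 0.683 in proton (0.665 to 0.702), so that the proton value lay just inside the 1.5-fold limit of 0.667. Its share of positive cells at 2000 UMIs was 40.6% in photon and 35.7% in proton, against 48.8% in control.

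Nqo1 encodes a quinone reductase that transfers electron pairs and is a standard readout of NRF2 activity. It lies on chromosome 8, 107388225 to 107403206, minus strand. It had 39.9 CPM in photon and 24.3 CPM in proton, against 52.3 CPM in control. The ratio to control was 0.762 in photon (0.716 to 0.812) and 0.465 in proton (0.430 to 0.503). Few cells showed it at 2000 UMIs, 7.25% in photon and 4.52% in proton, against 8.30% in control.

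Txnrd1, the cytosolic thioredoxin reductase (chromosome 10, 82833951 to 82897712, plus strand), was the member in which the beams differed least. It had 157 CPM in photon and 160 CPM in proton, against 210 CPM in control. Proton was 1.02 of photon (0.985 to 1.05), whereas photon was 0.746 of control (0.723 to 0.770) and proton 0.760 (0.735 to 0.786).

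Srxn1 encodes sulfiredoxin, which repairs overoxidised peroxiredoxins (chromosome 2, 152105516 to 152111376, plus strand). It had 42.3 CPM in photon and 52.5 CPM in proton, against 38.4 CPM in control. The ratio to control was 1.10 in photon (1.03 to 1.18) and 1.37 in proton (1.28 to 1.46), and proton was 1.24 of photon (1.16 to 1.32). These values are below 1.5-fold and are reported as within the limit. At 2000 UMIs, 7.83% of photon cells and 8.78% of proton cells had a Srxn1 transcript, against 7.20% of control cells.

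Several members overlap other annotated genes, and no source used here states whether counting used strand. Cfap43, on the strand opposite to Gsto1, had 13.7 CPM in photon and 6.60 CPM in proton against 21.3 CPM in control. Eid3, which lies within Txnrd1 on the same strand, had 2.92 and 8.37 CPM against 4.78 CPM. Gm17494, opposite to Gclm, had 5.28 and 3.79 CPM against 8.02 CPM. Their part in the members' counts was not tested.

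Ratios between these libraries depended on gene length across all genes, and the members differ in length. When the genes compared were put in 10 classes by the length of the gene on the genome, the median log2 ratio of proton to photon was -0.36 in the shortest class and 0.72 in the longest. For proton to control the medians were -0.17 and 0.37, and for photon to control 0.14 and -0.34. Gstp1, at 2579 bases, was in the shortest class, and Txnrd1, at 63762 bases, in class 8 counted from the short end. Gstm1 (5719 bases) and Srxn1 (5861) were in class 2, Gsto1 (9821) in class 3 and Nqo1 (14982) in class 4. Gclm (25176) was in class 5, and Gclc (39951) and Gsr (45641) were in class 7.

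With each ratio centred on the median of its class of genomic length, a step chosen after seeing the data, Gstm1 was at 0.240 of control in proton and Gstp1 at 0.227. Gsto1 was at 0.487 and Nqo1 at 0.508, so the 4 genes lower in proton than in control kept that call. Gsr, at 0.663, was then also lower. Srxn1, at 1.56 relative to control and 1.52 relative to photon, was then higher by the 1.5-fold rule. Proton to photon changed more: Gstm1 was at 0.660 and Gstp1 at 0.427 and both stayed lower, while Gsto1 at 0.703 and Nqo1 at 0.671 came within the limit. Txnrd1 was at 0.754 of photon, against 1.02 without centring. Centring by exonic length instead, also chosen after seeing the data, kept Gstm1, Gstp1, Gsto1 and Nqo1 lower in proton than in control, at 0.240, 0.230, 0.523 and 0.531. Gsr, at 0.774 of control, was then within the limit, and Srxn1 was at 1.55 of control and 1.44 of photon. Between proton and photon Gstp1 alone was then lower, at 0.432, with Gstm1 at 0.701, Gsto1 at 0.770 and Nqo1 at 0.792. The calls between proton and photon other than that of Gstp1 thus depended on how length was treated. Over all genes centred by genomic length, 1344 of 10204 were lower and 1329 higher in proton than in control. Between proton and photon 1241 of 10149 were lower and 902 higher. By exonic length these counts were 1385 and 1368, and 1378 and 950.

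The position of each gene's transcripts within the cultures was read from cells gated on 5 markers, in cells reduced to 2000 UMIs. The markers were Krt14 (a basal keratin, at least 5 UMIs), Cldn4 (a tight junction protein of luminal ducts, at least 2), Krt13 (a keratin of stratified squamous epithelium, at least 2), Top2a (a topoisomerase of dividing cells, at least 1) and Vim (vimentin, at least 2). Levels were then taken from all UMIs of the gated cells. A gate is a range of 1 transcript and not a cell type, and cells can pass several.

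The Krt14 gate held 38.4% of photon cells and 9.04% of proton cells, against 27.4% of control cells. Its limit cuts through a continuous range, with 865 photon, 280 proton and 741 control cells at exactly 5 UMIs and 977, 492 and 897 just below it. The Top2a gate held 7.14% of photon and 7.36% of proton cells, against 1.19% of control cells. The Cldn4 gate held 4.87% and 4.46%, against 6.73%. The Krt13 gate was small, with 188 photon and 114 proton cells against 114 control cells, and so was the Vim gate, with 243 and 100 against 16. Ratios to control in the Vim gate are not used because of those 16 cells.

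Other genes of the same kind were far higher inside the Krt13 and Top2a gates, and less so or not in the other gates. In the libraries pooled, Krt6a was 12.7-fold and Krtdap 11.6-fold higher inside the Krt13 gate than outside it, and Mki67 was 11.9-fold higher inside the Top2a gate. In the Krt13 gate Sprr1b and Sbsn were at 5.01- and 4.73-fold, below the luminal gene Krt19 at 6.02-fold. The luminal genes Cldn4, Krt7, Wfdc2 and Krt8 were at 1.83-, 1.39-, 0.996- and 0.717-fold there. The basal genes Krt5, Krt15, Krt14 and Trp63 were at 2.29-, 2.23-, 2.00- and 0.870-fold. In the Cldn4 gate the squamous genes Krt13 (5.02-fold) and Krt6a (2.61-fold) exceeded the luminal genes Krt19 (2.31-fold), Krt8 (1.66-fold) and Krt7 (1.23-fold). Of the other squamous genes listed, Sbsn was at 2.35-fold there and Sprr1b at 1.01-fold, while Krtdap was lower inside, at 0.522. The luminal gene Wfdc2 was at 1.39-fold. In the Krt14 gate Krtdap (3.63-fold) and Krt6a (2.63-fold) exceeded the basal genes Krt5 (1.82-fold) and Trp63 (1.12-fold). There the squamous genes Krt13, Sprr1b and Sbsn were at 1.96-, 1.87- and 1.19-fold, and the basal gene Krt15 at 1.42-fold. Of the Krt13-gated cells, 64.9% of photon and 35.1% of proton cells, against 27.2% of control cells, also passed the Krt14 gate. Their median depth was 4290 UMIs in photon and 3914 in proton against 5207 in control, above that of cells in no gate (3175 and 3045 against 3173). Doublets were not removed, and their part in these cells was not tested.

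**Figure D3:**
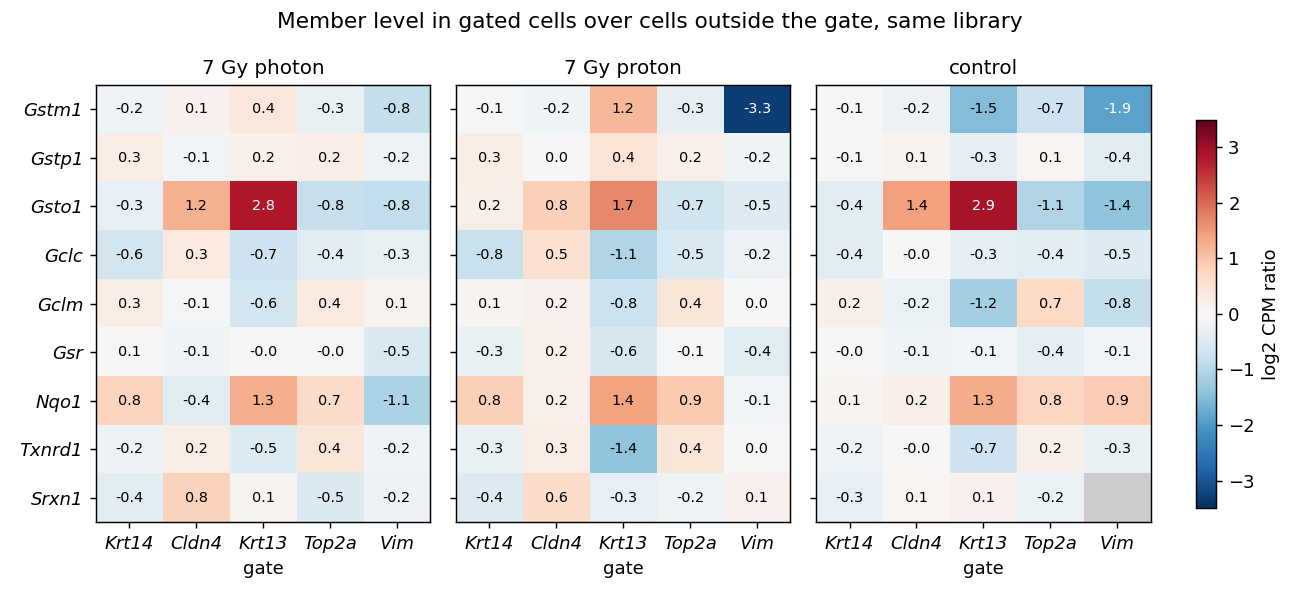
Log2 ratio of each gene's CPM in gated cells to that in all other cells of the same library, for 5 gates (columns) in the photon, proton and control libraries. Gsto1 in the Krt13 gate stands at 6.95-fold in photon, 3.19-fold in proton and 7.43-fold in control, and the control Vim column rests on 16 cells (grey, no Srxn1 transcript).

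Gsto1 had its highest level in Krt13-gated cells. It reached 2689 CPM there in photon and 801 CPM in proton, against 4252 CPM in control. This was 6.95-fold the level outside the gate in photon (6.65 to 7.25), 3.19-fold in proton (2.87 to 3.53) and 7.43-fold in control (7.14 to 7.74). Of the cells with 10 or more Gsto1 transcripts, 14 of 30 in photon and 2 of 10 in proton, against 20 of 59 in control, were in the Krt13 gate. The Cldn4 gate held 14, 2 and 23 of them. Cells of no gate held 8778 Gsto1 UMIs in photon, 5511 in proton and 13013 in control. The Krt13 gate held 2399, 396 and 2676.

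Cldn4-gated cells also had more Gsto1 than the rest, with 974 CPM in photon and 452 CPM in proton, against 1539 CPM in control. Dividing cells had less: in the Top2a gate the level was 262 CPM in photon and 166 CPM in proton, against 310 CPM in control. Within the gates the ratio of proton to control was 0.188 in Krt13 (0.169 to 0.210) and 0.294 in Cldn4 (0.268 to 0.321), compared with 0.573 in Krt14 (0.531 to 0.618) and 0.535 in Top2a (0.449 to 0.639). The proton library was thus furthest below control in the Krt13 and Cldn4 gates, where control cells had most, but the difference between gates was not tested.

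Nqo1 was likewise highest in Krt13-gated cells, with 96.4 CPM in photon and 64.8 CPM in proton, against 126 CPM in control. That was 2.42-fold the level outside the gate in photon, 2.68-fold in proton and 2.46-fold in control. It was also 1.59-, 1.90- and 1.69-fold higher inside the Top2a gate of these libraries. In the Krt14 gate it was 1.72-fold higher than outside in photon (1.56 to 1.89) and 1.78-fold in proton (1.44 to 2.19), against 1.08-fold in control (0.974 to 1.19). Krt14-gated cells had 54.9 CPM in photon and 41.4 CPM in proton, against 55.2 CPM in control, while cells in no gate had 31.0 and 20.9 CPM against 48.2 CPM. In photon, then, the level of Nqo1 in Krt14-gated cells was close to control, with a ratio of 0.994 (0.892 to 1.11). Of the Krt14-gated cells, 10.9% of photon and 11.8% of proton cells, against 1.48% of control cells, also passed the Top2a gate. For the Krt13 gate these shares were 2.92% and 5.57%, against 1.18%. The part of these cells in the Nqo1 levels was not tested.

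Gstm1 showed a different layout. Krt13-gated cells had 59.4 CPM in photon and 54.6 CPM in proton, against 46.1 CPM in control, where the value rests on 29 transcripts. The ratios to control in that gate were 1.29 in photon (0.805 to 2.10) and 1.19 in proton (0.675 to 2.08), both spanning 1. In the Krt14, Cldn4 and Top2a gates the ratio to control lay between 0.335 and 0.489 in photon and between 0.192 and 0.257 in proton, with every interval below 1. Relative to cells outside the gate, Gstm1 in Krt13-gated cells was at 1.31 in photon (0.980 to 1.73) and 2.24 in proton (1.46 to 3.29), against 0.350 in control (0.234 to 0.503).

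Gstp1 differed little between gates within a library. Its ratio of gated to other cells lay between 0.793 and 1.36 in the Krt14, Cldn4, Krt13 and Top2a gates of all 3 libraries. The ratio of proton to control was below 1, interval included, in all 4 of these gates, from 0.185 in Cldn4 to 0.335 in Krt13. The ratio of photon to control was below 1 in 3 of them, and in Krt13 it was 0.824 (0.621 to 1.10).

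Gclc was lower in Krt14-gated cells than outside the gate in every library, with 525 CPM in photon and 371 CPM in proton, against 599 CPM in control. In Cldn4-gated cells it had 879 CPM in photon and 866 CPM in proton, against 722 CPM in control, ratios of 1.22 (1.14 to 1.30) and 1.20 (1.11 to 1.29). In the Krt13 gate the ratios to control were 0.740 in photon (0.640 to 0.857) and 0.514 in proton (0.422 to 0.625). Gclc was thus above control in the Cldn4 gate and below it in the Krt13 gate in both irradiated libraries.

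Gclm was highest in dividing cells, with 267 CPM in photon and 235 CPM in proton, against 347 CPM in control inside the Top2a gate. This was 1.28-, 1.33- and 1.64-fold the level of other cells in photon, proton and control. It was lowest in Krt13-gated cells, with 139 and 107 CPM against 95.3 CPM. Txnrd1 followed a like layout, at 200 CPM in photon and 203 CPM in proton against 234 CPM in control in the Top2a gate, and 111 and 58.7 CPM against 124 CPM in the Krt13 gate.

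Gsr lay between 0.675 of the level outside (Krt13, proton) and 1.12 (Cldn4, proton) in the Krt14, Cldn4, Krt13 and Top2a gates. Srxn1 stood apart in Cldn4-gated cells, where it had 70.5 CPM in photon and 81.9 CPM in proton, against 40.6 CPM in control. The ratio to control there was 1.73 in photon (1.33 to 2.27) and 2.02 in proton (1.51 to 2.68), whereas in the Krt14, Krt13 and Top2a gates all intervals of the ratio to control spanned 1. In cells of no gate it was 1.12 in photon (1.02 to 1.22) and 1.32 in proton (1.21 to 1.44).

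**Figure D4:**
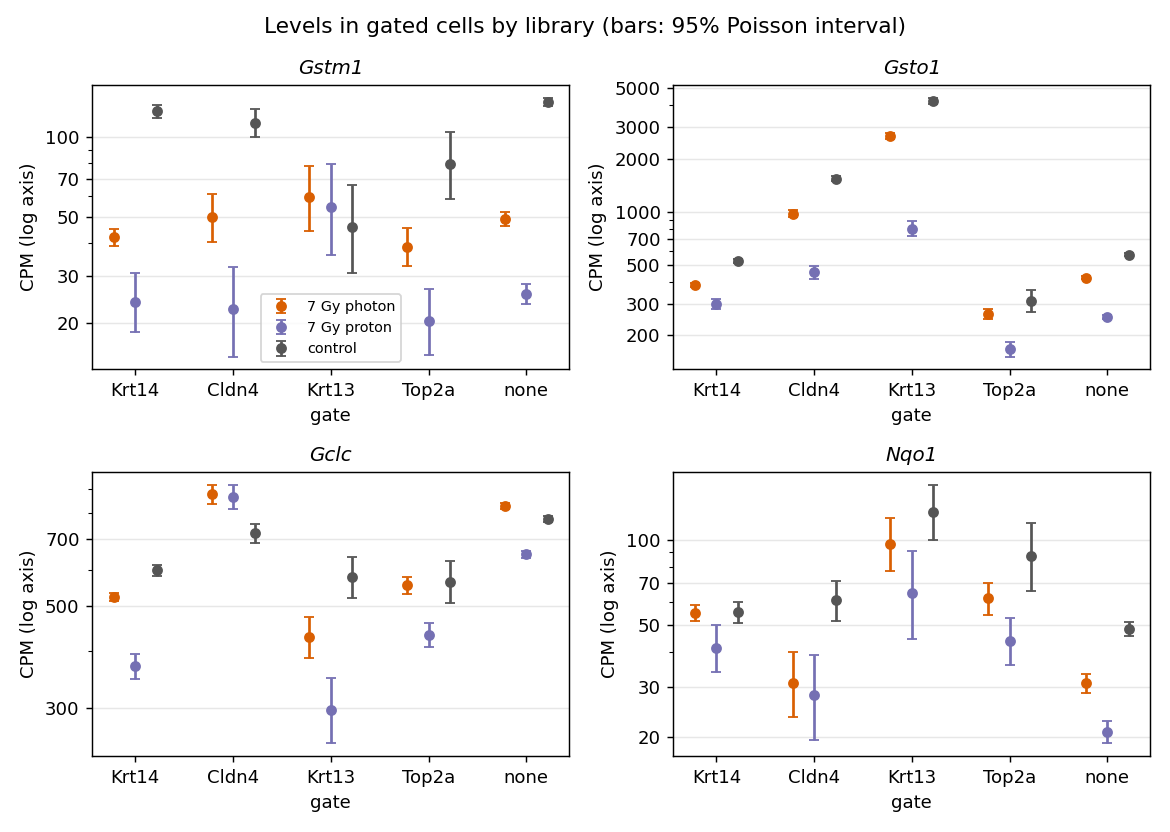
CPM (log axis) of Gstm1, Gsto1, Gclc and Nqo1 in cells of 4 gates and in cells of none of the 5 gates, for the photon, proton and control libraries, with bars for the exact 95% Poisson interval. Gstm1 is below control in each column except Krt13, and Gclc is above control in Cldn4 in both irradiated libraries.

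Because the gates held different shares of cells, the ratios were recomputed with the mixture held equal over the 3 combinations of gates that had at least 100 cells in each library. These were cells of no gate, of Krt14 alone and of Cldn4 alone. They made up 88.7% of photon and 90.0% of proton cells, against 96.2% of control cells. Cells of the Krt13, Top2a and Vim gates were left out, so the differing shares of those gates were not held equal. Gstm1 was then at 0.356 of control in photon and 0.181 in proton, and Gstp1 at 0.558 and 0.200. Gsto1 was at 0.733 and 0.463, and Nqo1 at 0.714 and 0.486. Gstm1, Gstp1, Gsto1 and Nqo1 were therefore also lower in proton than in control at an equal mixture of these 3 combinations. Gsr, at 0.658, passed the limit there too. Between proton and photon Nqo1, at 0.681, was then within the limit.

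Cells were also split by a transcript of Cdkn1a, the cell cycle inhibitor that p53 induces, which was seen at 2000 UMIs in 36.2% of photon and 25.8% of proton cells, against 21.4% of control cells. Cells with it had more Gclc, by 1.44-fold in photon (1.40 to 1.47) and 1.47-fold in proton (1.42 to 1.51), against 1.11-fold in control (1.08 to 1.14). Srxn1 was 1.504-fold higher in them in photon, 1.42-fold in proton and 1.25-fold in control. Gsto1 was 1.40-fold higher in photon and 1.31-fold in proton, against 1.78-fold in control. Gclm in these cells was at 0.903 of the others in photon and 1.02 in proton, against 0.879 in control.

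Aox3 encodes an aldehyde oxidase, and cells with its transcript made up 3.98% of photon and 2.46% of proton cells, against 21.2% of control cells. Gstm1 was higher in such cells, by 2.06-fold in photon (1.71 to 2.47) and 2.05-fold in proton (1.38 to 2.94), against 1.39-fold in control (1.29 to 1.48). Nqo1 was at 0.617 in photon and 0.707 in proton of its level in other cells, against 0.621 in control, with an interval that spanned 1 in proton (0.351 to 1.27). In cells without Aox3 transcripts Gstm1 had 43.9 CPM in photon and 24.4 CPM in proton, against 122 CPM in control.

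Isg15, an interferon-induced gene, was seen in 80.9% of photon and 63.3% of proton cells, against 7.43% of control cells. Cells with it had 0.738 of the Gsto1 of other cells in photon, 0.889 in proton and 0.845 in control. For the other 8 genes the ratio between cells with and without Isg15 lay between 0.826 and 1.14 in all 3 libraries.

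The regulators of the pathway were described from lists of 94 further genes. Of the 10 NRF2 regulators, 2 were lower and 0 higher in photon than in control, and 4 were lower and 0 higher in proton. Over all genes 9.45% were lower and 7.37% higher in photon, and 14.9% lower and 14.2% higher in proton. Nfe2l2 had 210 CPM in photon and 179 CPM in proton, against 280 CPM in control, ratios of 0.751 and 0.638. Keap1 had 46.9 and 41.6 CPM against 45.8 CPM, and Bach1 had 53.5 and 62.9 CPM against 84.2 CPM. In photon the lower genes were Bach1 and the small MAF partner Maff, and in proton Nfe2l2, Maff, Mafg and Sqstm1, which encodes a KEAP1-binding autophagy adaptor. Maff was at 0.563 of control in photon and 0.405 in proton, Mafg at 0.734 and 0.465. Maff, Mafg and Sqstm1 were named after their values were seen, as were the further genes called within a list below.

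Among all 94, 79 could be compared between photon and control, with 5 higher and 11 lower, and a median log2 ratio of -0.09. Between proton and control 78 could be compared, with 3 higher and 27 lower, and a median of -0.33. Between proton and photon 75 could be compared, with 4 higher and 20 lower, and a median of -0.36. The shares over all genes are those given above for the same limits, and they apply to each list below. For photon to control 7.37% were higher and 9.45% lower, and for proton to control 14.2% and 14.9%. For proton to photon they were 22.2% and 14.0%. The all-gene medians in these comparisons were -0.12, 0.03 and 0.12.

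**Figure D5:**
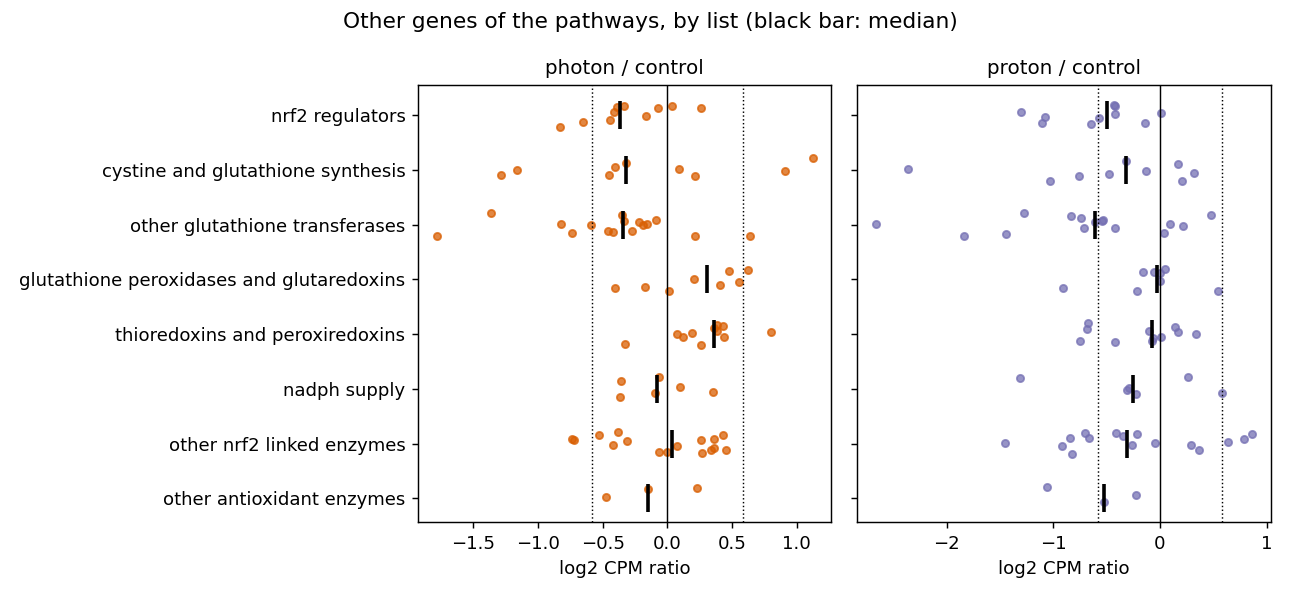
Log2 CPM ratio to control of the further pathway genes with a mean of at least 5 CPM, by list, in the photon and proton libraries, with a black bar at each list's median and dotted lines at 1.5-fold. Among other glutathione transferases the median is -0.35 in photon and -0.61 in proton.

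Of the other glutathione transferases, 5 of 16 were lower and 1 was higher in photon than in control, and 8 of 15 were lower and 0 higher in proton. Gsta3, an alpha-class enzyme, had 43.3 CPM in photon and 31.3 CPM in proton, against 112 CPM in control. Gsta4, which acts on the lipid aldehyde hydroxynonenal, had 420 and 212 CPM against 578 CPM. Gstp2, already given, had the lowest ratio to control of the listed genes compared in both libraries, at 0.291 in photon and 0.158 in proton.

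In the supply of cystine and the synthesis and turnover of glutathione, 2 of 9 genes were higher and 2 lower in photon, and 0 higher and 3 lower in proton. Slc7a11, the cystine importer, had 305 CPM in photon and 441 CPM in proton, against 746 CPM in control, so that the photon library had the lower value. Slc3a2, its partner subunit, was also lower in proton, at 0.488 of control. Chac1, which degrades glutathione, had 22.5 and 9.81 CPM against 50.4 CPM. Gss, which completes glutathione, had 27.6 and 19.1 CPM against 23.8 CPM. Cth, which makes cysteine, was at 2.18 of control in photon (1.87 to 2.54), and Ggct, which handles gamma-glutamyl dipeptides, at 1.88 (1.72 to 2.06).

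Genes of the glutathione peroxidase and glutaredoxin list had a median log2 ratio to control of 0.31 in photon and -0.03 in proton. Those of the thioredoxin and peroxiredoxin list had 0.36 and -0.07, beside -0.12 and 0.03 over all genes. Gpx4, which reduces lipid peroxides with glutathione, had 634 CPM in photon and 631 CPM in proton, against 630 CPM in control. Txn1, the substrate of Txnrd1, had 802 and 552 CPM against 594 CPM. Prdx1, a peroxiredoxin that Srxn1 can repair, had 1461 and 826 CPM against 1387 CPM, so proton was at 0.596 of control while Srxn1 was at 1.37. Of the 11 thioredoxin and peroxiredoxin genes, 1 was higher and 0 lower in photon, and 0 higher and 3 lower in proton. The higher gene was Prdx4, at 1.74 of control, and the lower genes were Prdx1, Prdx5 and Txnrd3.

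Other NRF2-linked enzymes were split in the proton library, with 3 of 16 higher and 6 lower than control. The higher genes were Ephx1, an epoxide hydrolase, at 1.82 of control, the exporter gene Abcc4 at 1.73, and the ferritin gene Ftl1 at 1.56. Hmox1, which opens haem, had 53.9 CPM in photon and 24.5 CPM in proton, against 67.0 CPM in control. Cbr1 and Cbr3, carbonyl reductases, were at 0.501 and 0.511 of photon in proton. G6pdx, a source of NADPH, had 52.4 CPM in photon and 83.8 CPM in proton, against 56.0 CPM in control, a ratio of 1.498 in proton that lies just under the limit. Taldo1, of the same pentose phosphate pathway, had 387 CPM in photon and 199.6 CPM in proton, against 496 CPM in control. Of the 6 genes of NADPH supply, 0 were higher and 0 lower in photon, and 0 higher and 1 lower in proton.

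For the members other than Txnrd1, the genes with the most similar layout are given over 18 strata, the 5 gates and the cells of none in each library, by Pearson correlation of log2(CPM + 1) among 5846 genes. These strata share libraries and depth, so the coefficients are descriptions. Closest to Gstm1 were Ptpn1, a tyrosine phosphatase (r = 0.94), and Syf2 (0.89). The proton Vim gate held 1 Gstm1 transcript (2.58 CPM), and the ranking was not repeated without that stratum. Closest to Gstp1 were Cd9, a tetraspanin, and Atp5h, a subunit of ATP synthase (both 0.97). Il33 and Ppl, periplakin of stratified epithelium, were closest to Gsto1 (both 0.96).

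For Gclc they were Ube2h (0.91) and Akap9 (0.90), for Gclm Ilk and Kitl (both 0.90), and for Gsr Cdc42ep3 (0.95) and Tmem158 (0.91). For Nqo1 they were Anxa8 (0.86) and Ctsc (0.84). Srxn1 had Lasp1 and Atg13 (both 0.98), but this rested on the 16 control cells of the Vim gate, which held no Srxn1 transcript. Without that stratum, a step chosen after seeing the data, the 2 coefficients were 0.74 and 0.72, and Mtpn (0.95) and St14 (0.91) ranked first. Leaving it out also changed the order for other members. Gde1 (0.97) then ranked first for Gsto1 and Slc29a1 (0.95) for Gclm, Ctsc came before Anxa8 for Nqo1, and Atp5h was at rank 6 for Gstp1 and Kitl at rank 9 for Gclm. Among the members themselves, over all 18 strata, the closest pair was Gstm1 with Gstp1 (r = 0.78), followed by Gstp1 with Gsr (0.76). Gclm with Txnrd1 (0.68) and Gstm1 with Gsr (0.66) came next. The pairs were not recomputed without the stratum of 16 cells or without the proton Vim stratum. How far their order depends on these strata is not known.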

How the data were processed

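For each library the authors deposited raw counts of UMIs per gene and cell barcode. The tool was Cell Ranger 7.0.1 with the mm10 build, per the submitters' processing notes, but version 7.0.0 per the file headers. Whether intronic reads and strand were used, and which annotation, is not stated in the sources. All gene lists held 32285 genes, of which 32158 matched GENCODE M21 by identifier.

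Cells under 500 detected genes or over 20% mitochondrial counts were dropped, and no doublet caller was run. CPM is a gene's UMIs over all kept UMIs of a library. Intervals of levels are exact Poisson and those of shares and ratios exact binomial, at 95%. Detection was compared at 2000 UMIs per cell, which left out 4150 photon, 6017 proton and 3599 control cells. A gate takes the lowest UMI count, of at least 2 (Top2a 1), that keeps at most 30% of the cells of the libraries pooled.

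With 1 library per group no test was made, and genes were counted by size alone. The genes named are the 9 members, 11 listed pathway genes, paralogs of Gstm1 and Gstp1, the 6 listed genes per comparison with the largest ratio either way, and the 2 genes most like each member in layout, which for Txnrd1 are not reported here. Of the pathway lists, 9 further genes that passed the size limit (Maff, Mafg, Sqstm1, Prdx4, Prdx5, Txnrd3, Ephx1, Abcc4 and Ftl1) and Slc3a2 were named after their values were seen. Members and lists were chosen with earlier results of these data known. Alternatives were other scalings, filters, cell weights, gate rules and depths. The scripts (Python 3.11.15, numpy 2.4.6, scipy 1.17.1, matplotlib 3.10.9) were tested on simulated data.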

Additional observations from a re-analysis of the deposited data

Results flagged for a closer look

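The ratio of Gclc to control lay on opposite sides of 1, counting intervals included, in Cldn4- and Krt13-gated cells. Photon to control was 1.22 in the Cldn4 gate and 0.740 in the Krt13 gate, and proton to control was 1.20 and 0.514 in those gates. Gclm did so in photon against control, at 1.46 in the Krt13 gate and 0.770 in the Top2a gate. This criterion, for gates with at least 100 cells in both libraries, was set after the values were seen. The difference between gates was not tested.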

How the results depend on the processing

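No paired analysis was possible because each group was 1 library, and for the same reason no replicate could be left out. Under 7 alternative settings Gstm1, Gstp1, Gsto1, Gsr and Nqo1 stayed below 1 in all 3 comparisons and Srxn1 above 1. Gclc in photon against control was above 1 in 2 of the 7 and Gclm in 1, and Txnrd1 in proton against photon was below 1 in 2. Scaling by the median of gene ratios brought the all-gene median log2 ratio in photon against control to -0.02, against -0.12, and the genes higher and lower to 924 and 581, against 744 and 954. For proton against photon it gave 1817 and 1714, against 2258 and 1418. Listed pathway genes higher in photon than control numbered 3 with a mean of at least 25 CPM and 9 with no filter, against 5. Over all genes, 333 of 5790 were higher at 25 CPM. Listed genes higher in proton than control numbered 5 with mitochondrial and ribosomal genes left out of totals and 7 with no filter, against 3. Over all genes, the same totals gave 1760 of 10711 higher, against 1448 of 10211. Listed genes higher in proton than photon numbered 7 with no filter, against 4. No all-gene share is given for the counts with no filter. Listed genes lower in photon than control numbered 7 with cells weighted equally, against 11. Over all genes, that weighting gave 1197 of 10211 lower, against 954 of 10090. Centring by genomic length, chosen after seeing the data, gave 1 member higher in proton than in control and 1 higher in proton than in photon, against 0, and 2 members lower in proton than in photon, against 4. Over all genes, centring by genomic length gave 1329 of 10204 higher in proton than in control. Between proton and photon it gave 902 of 10149 higher and 1241 lower. Centring by exonic length, also chosen after seeing the data, gave 1 member higher in proton than in control, against 0. Between proton and photon it gave 0 members higher and 1 lower. Over all genes it gave 1368 of 10204 higher in proton than in control, and 950 of 10149 higher and 1378 lower in proton than in photon. It gave 9 of 79 listed genes higher in photon than in control, where 874 of all 10083 genes were higher. Between proton and control 5 of 78 listed genes were then higher and 18 lower, against 27 lower, where 1385 of the 10204 genes were lower. Nqo1 in the control Vim gate, of 16 cells, had a log2 ratio to other cells of -1.20 with cells in exactly 1 gate and -0.00541 with gates on raw counts, against 0.88. The causes were not tested. Of 189 recomputed member ratios, 70 moved beyond the counting interval of the value reported and 5, all within 1.5-fold, changed side of 1. Of 402 gate ratios 85 moved so and, of those past 1.5-fold, the 2 of Nqo1 given above turned direction. All 54 detection shares, taken at 1000 or 4000 UMIs per cell, moved. The few cells of the Krt13, Vim and control Top2a gates limit their precision.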
